A study of Rattus norvegicus with 4 samples.

Results

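The growth hormone axis of the rat liver was followed through 9 genes, found by their symbols in a table of 32545 listed genes, each with 1 row. They were the feedback inhibitors Cish, Socs2 and Socs3, the receptors Ghr and Prlr with the transcription factor Stat5b, and the secreted output Igf1, Igfals and Igfbp3. Of the 9 genes, 6 (Cish, Socs2, Ghr, Igf1, Igfals and Igfbp3) passed the filter on low counts and were among the 4986 genes tested. Stat5b, Socs3 and Prlr did not pass it. The genes were chosen with earlier results of the same contrast known, in which Cish and Socs2 had some of the most negative log2 changes, so their differences between the groups are given as a description and no test of them is used as support. None of the 9 listed intervals overlapped that of another listed gene.

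Liver messenger RNA was sequenced from rats under forced activity with sleep restriction (2 libraries) and from rats under forced activity alone (2 libraries), which served as the control. Forced activity was therefore common to both groups, and the series had no undisturbed rats among the libraries analysed. The series describes the restriction as chronic, and the labels used here give no strain, sex, age or duration. The labels do not say that the 2 libraries of a group came from separate animals, so p-values measure only the spread between these libraries, which may be technical.

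The table gives estimated counts, with column totals between 508202.6 and 520275.6. These even totals come from libraries of unequal depth: the values of both replicate 1 libraries have the form of averages over draws that kept an estimated fraction of 0.05 of the reads in sleep restriction 1 and 0.03 in forced activity 1, against fractions of 1 and 0.59 in the shallower replicate 2 libraries. The interval of the fraction ran from 0.01 to 0.09 in sleep restriction 1 and from 0.01 to 0.07 in forced activity 1, so their order is not determined. Replicate 1 of each group is called the deep pair and replicate 2 the shallow pair, and values within each pair are given because depth goes with replicate number. Markers of hepatocytes, among them Alb, were abundant in all 4 libraries. Levels are in CPM, counts scaled to a total of 1000000 over the tested genes of a library with TMM factors, and no transcript lengths were used, so levels are compared between libraries and not between genes.

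Growth hormone, released by the pituitary in pulses, binds its receptor on hepatocytes, which activates the kinase JAK2 and through it STAT5. STAT5 enters the nucleus and turns on Igf1, whose product carries much of the hormone's effect on growth, and also Cish and the SOCS genes. Transcripts of Cish and Socs3 appear early after a pulse and are short lived. The proteins of Cish, Socs2 and Socs3 dampen the receptor and JAK2, whereas Igf1 and Igfals are slower products that circulate in a complex with Igfbp3.

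STAT5 recognises the palindrome TTCNNNGAA, and this motif was searched in RefSeq windows of the rat build GRCr8 that run from 250 bases before to 50 bases after a gene's start. Windows were found for 8 of the 9 genes, with 9 windows in all because Prlr has more than 1 start, and Socs2 had none. The Cish window held 4 matches, the first bases of which lay 241, 230, 136 and 119 bases before the start. In the mouse, STAT5 is known to bind tandem sites of this form in the Cish promoter. Of 33469 windows of this length, 8.87% held at least 1 match and 2 windows held at least 4. The Cish stretch of 250 bases before the start (GRCr8, chr8:116850719-116850968, plus strand) is shown because it carries all 4 matches, which stand in capitals.
Cish: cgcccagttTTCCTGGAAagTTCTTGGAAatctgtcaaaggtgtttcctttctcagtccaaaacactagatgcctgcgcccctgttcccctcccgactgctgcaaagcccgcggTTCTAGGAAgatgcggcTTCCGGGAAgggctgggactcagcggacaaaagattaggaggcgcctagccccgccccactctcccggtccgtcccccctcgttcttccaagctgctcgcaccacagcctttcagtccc

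One of the Prlr windows held 1 match, TTCTAGGAA, which starts 176 bases before that start and has the same letters as the match of Cish at 136 bases. The windows of Socs3, Ghr, Stat5b, Igf1, Igfals and Igfbp3 held none. A match is a run of letters and does not show binding, and a window without one says only that these letters are not in it.

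Among the feedback inhibitors, Cish and Socs2 had their 2 lowest values under sleep restriction and their 2 highest under forced activity, while Socs3 was close to 0 in all 4. Ghr and the secreted output differed less between the groups, and their values overlapped. Cish had a log2 change of -2.93 (SE 0.47) and Socs2 of -1.77 (SE 0.37), sleep restriction over forced activity, against 0.26 for Ghr (SE 0.21) and -0.12 for Igf1 (SE 0.22). No gene of the axis passed an adjusted p of 0.05 in edgeR's quasi-likelihood test over all tested genes, in DESeq2 or in limma-voom.

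Cish encodes an SH2-domain protein that competes at phosphorylated cytokine receptors and marks them for degradation. Its row (ENSRNOG00000029543.4) spans chromosome 8 from 116054465 to 116060723 in rn6. Cish had 1.7 and 1 counts in sleep restriction 1 and 2, against 33.9 and 15.1 counts in forced activity 1 and 2. That is 3.46 and 2.03 CPM under sleep restriction and 71.8 and 29.4 CPM under forced activity. Both sleep restriction libraries were low and the groups did not overlap, although the forced activity libraries themselves differed by more than 2-fold. Of all tested genes, 1 had a lower log2 change than Cish.

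The means were 2.75 ± 1.01 CPM under sleep restriction and 50.6 ± 30.003 CPM under forced activity (SD, n = 2 each). The ratio of summed counts, sleep restriction over forced activity, was 0.0614, from rounded counts of 3 against 49. Its exact 95% counting interval was 0.0122 to 0.190. Such intervals treat averaged values as plain counts, and they cover counting error only and no difference between animals. Cish was lower in both pairs, by a log2 difference of -3.33 between the deep libraries and of -2.46 between the shallow ones. The adjusted p was 0.219 in edgeR and 0.266 in DESeq2, which gave a log2 change of -4.06 (SE 1.09).

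**Figure D1:**
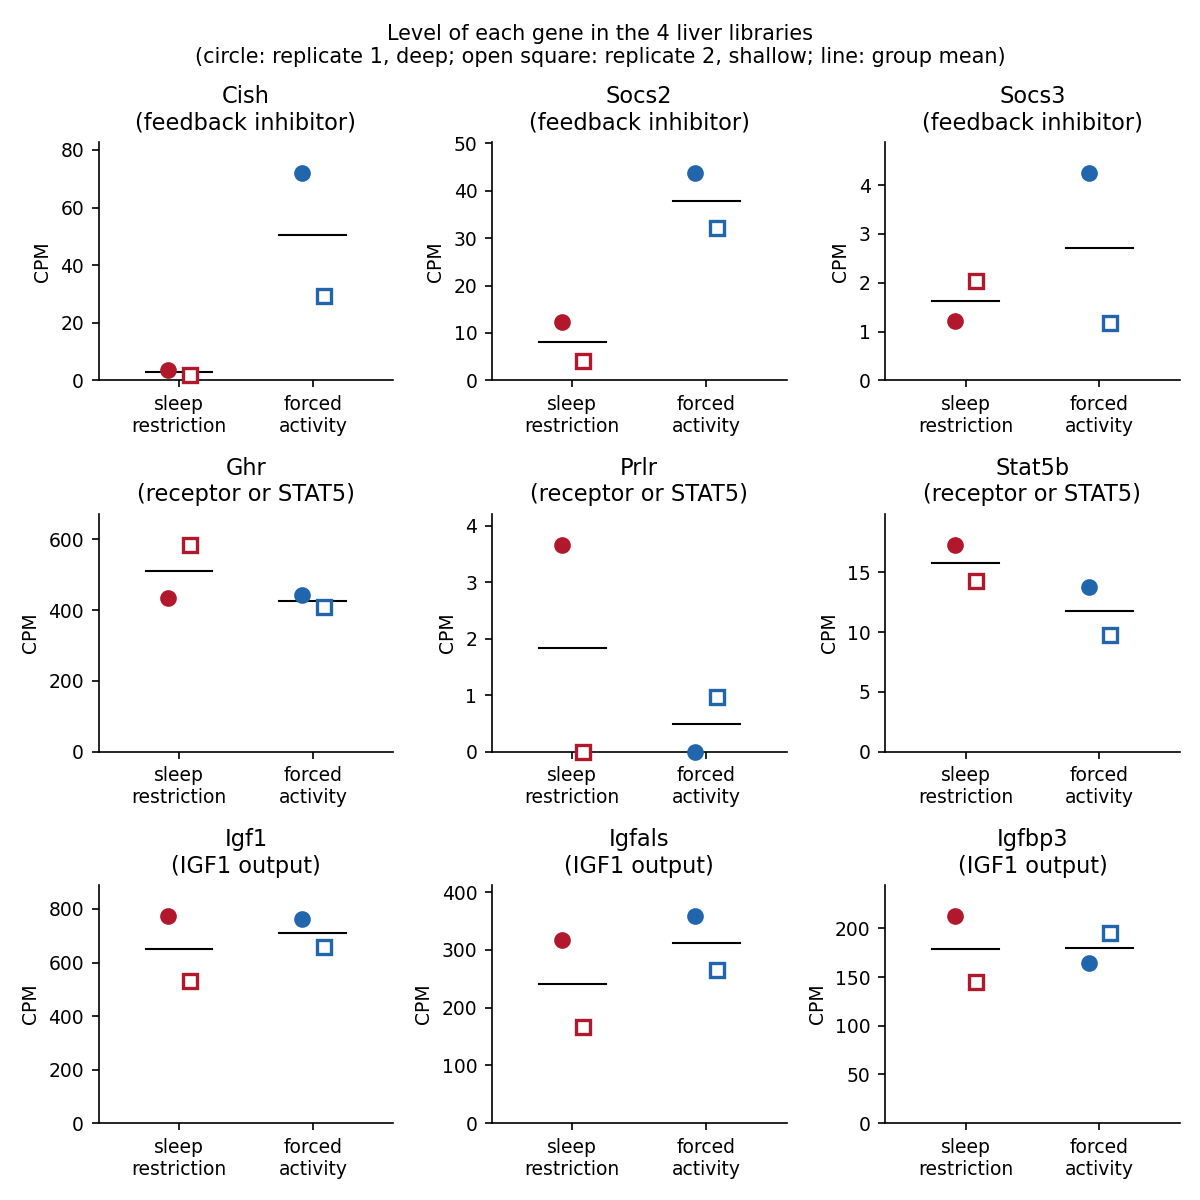
Level of each gene in CPM (vertical axes, each starting at 0) in the sleep restriction and forced activity libraries, with circles for replicate 1, open squares for replicate 2 and lines for the group means of 2 libraries. Cish and Socs2 sit below 13 CPM in both sleep restriction libraries and above 29 CPM in both forced activity libraries, while the groups overlap for Ghr, Igf1, Igfals and Igfbp3.

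Socs2 encodes a ubiquitin ligase adaptor that targets the growth hormone receptor, and mice without it grow larger than normal. It lies on chromosome 7 from 36495480 to 36499784. Socs2 had 6 and 2 counts in sleep restriction 1 and 2, against 20.6 and 16.5 counts in forced activity 1 and 2. Its level was 12.2 and 4.07 CPM under sleep restriction and 43.7 and 32.1 CPM under forced activity. The highest sleep restriction library was thus well under the lowest forced activity library.

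The group means of Socs2 were 8.14 ± 5.76 CPM under sleep restriction and 37.9 ± 8.15 CPM under forced activity (SD, n = 2 each). The ratio of summed counts was 0.217, with an exact 95% counting interval of 0.0872 to 0.473. Socs2 was lower in both pairs, with a log2 difference of -1.55 between the deep libraries and of -2.15 between the shallow ones. The adjusted p was 0.502 in edgeR, and 3 tested genes had a lower log2 change. In contrast to Cish, whose larger difference lay in the deep pair, Socs2 had its larger one in the shallow pair. The difference between the pairs was not tested.

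Socs3, which blocks JAK kinases mainly downstream of interleukin-6 type cytokines, had 0.6 and 1 counts under sleep restriction and 2 and 0.6 counts under forced activity. No library was above 3 counts, the limit taken here as the floor, so no fold was calculated and a difference in Socs3 was not detectable at this depth. Its listed interval on chromosome 10 runs only from 106975178 to 106976040, a span of 863 bases, the shortest of the 9. Other members of the family were also scarce. Socs1 had at most 0.5 counts in any library, Socs7 at most 1 count and Socs4 at most 2.7 counts. Socs5 had 6.3 and 3 counts under sleep restriction and 5.5 and 6 counts under forced activity, and Socs6 had 5.1 and 5 counts against 4.8 and 9.6 counts. These family members were below the gene filter and their groups overlapped, so among the SOCS family only Cish and Socs2 had counts that could be tested. Cish and Socs2 reached the filter's minimum count of 10 only in the forced activity libraries, so passing it was tied to being high there.

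At an unadjusted p under 0.05, 2 of the 6 tested genes of the axis were lower and none was higher, against 4.25% of all tested genes in either direction, 1.34% lower and 2.91% higher. The groups did not overlap for the same 2 genes, with sleep restriction lower, as for 15.3% of all tested genes. At the adjusted threshold 0.0201% of all tested genes were called. Since the genes were chosen from this contrast, and Cish and Socs2 passed the filter only through forced activity, nothing is read from these shares.

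Both genes had few counts under sleep restriction, and what set their precision was not tested. Sleep restriction 2, the shallowest library, held 1 read of Cish, with an exact Poisson interval of 0.0253 to 5.57, and 2 reads of Socs2, with an interval of 0.242 to 7.22. Leaving out any 1 library gave log2 changes between -3.41 and -2.23 for Cish and between -2.36 and -1.36 for Socs2. Each of these fits has 1 library in 1 group, so the spread comes from the remaining group alone, with 1 residual degree of freedom, and its p-value says little about the call. Scaling every library to its effective number of counts called Cish (log2 change -3.74, adjusted p = 0.0230 in edgeR) and not Socs2 (adjusted p = 0.204).

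The growth hormone receptor, Ghr, is the entry point of the axis and its transcript was abundant. Ghr had 213 and 287 counts in sleep restriction 1 and 2, against 208.2 and 209.3 counts in forced activity 1 and 2. Its level was 434 and 584 CPM under sleep restriction and 441 and 408 CPM under forced activity. Only sleep restriction 2 was above both controls, and the groups overlapped. The means were 509 ± 106 and 424 ± 23.8 CPM (SD, n = 2 each), and the adjusted p was 0.978 in edgeR. The ratio of summed counts was 1.20, with a counting interval of 1.05 to 1.37 that excludes 1. The deep pair gave a log2 difference of -0.03 and the shallow pair one of 0.51, so its direction was not shared between the pairs.

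Stat5b, the main STAT5 of hepatocytes, had 8.5 and 7 counts under sleep restriction and 6.5 and 5 counts under forced activity. These are 17.3 and 14.2 CPM under sleep restriction and 13.8 and 9.74 CPM under forced activity, with both sleep restriction libraries slightly above both controls, as for 17.2% of tested genes. The ratio of summed counts was 1.37 with a counting interval of 0.587 to 3.29, which includes 1. Stat5b was below the gene filter, and with no filter it had a log2 change of 0.32 with an adjusted p of 0.850 in edgeR. Its close relative Stat5a, on 4.4 to 5 counts per library, had 9.16 and 10.2 CPM under sleep restriction and 9.32 and 9.35 CPM under forced activity.

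The prolactin receptor, Prlr, which signals through the same kinase and STAT5, had 1.8 and 0 counts under sleep restriction and 0 and 0.5 counts under forced activity. All 4 libraries were under the floor of 3 counts, so no fold is given.

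Igf1, the secreted growth factor that the liver supplies to the circulation, had 379.7 and 261 counts in sleep restriction 1 and 2, against 359.7 and 338.3 counts in forced activity 1 and 2. It measured 773 and 531 CPM under sleep restriction and 762 and 659 CPM under forced activity. Sleep restriction 1 held the highest and sleep restriction 2 the lowest of the 4 values, so the groups overlapped. The means were 652 ± 171 and 711 ± 73.1 CPM (SD, n = 2 each), with a log2 change of -0.12 (SE 0.22). The deep pair gave a log2 difference of 0.02 and the shallow pair one of -0.31. The ratio of summed counts was 0.921, and its counting interval ran from 0.826 to 1.03, so on counting error alone a difference as large as that of Cish or Socs2 lay outside it.

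Igfals encodes the acid-labile subunit, which hepatocytes make and which holds IGF1 in the circulating complex. Igfals had 155.6 and 82 counts under sleep restriction and 169.1 and 136.2 counts under forced activity. That is 317 and 167 CPM under sleep restriction and 358 and 265 CPM under forced activity. Sleep restriction 2 was the lowest library, and sleep restriction 1 lay between the 2 controls. Igfals was lower in both pairs, by -0.18 on the log2 scale where depth was high and by -0.66 where it was low, with an overall log2 change of -0.36 (SE 0.29, adjusted p = 0.978 in edgeR). Summed counts gave a ratio of 0.782, with a counting interval of 0.658 to 0.930 that excludes 1. Without sleep restriction 2 the log2 change was 0.022.

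Igfbp3, the main IGF carrier in serum, is made in rat liver by non-parenchymal cells rather than by hepatocytes. Igfbp3 had 104.4 and 71 counts under sleep restriction and 77.6 and 100.1 counts under forced activity. It measured 212 and 144 CPM under sleep restriction and 164 and 195 CPM under forced activity. Sleep restriction held both the highest and the lowest library, and the group means were 178 ± 48.1 and 180 ± 21.6 CPM (SD, n = 2 each). The deep pair gave a log2 difference of 0.36 and the shallow pair one of -0.42, so the direction turned between the pairs. Summed counts gave a ratio of 0.986, with a counting interval of 0.796 to 1.22.

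The sum of sinusoidal endothelial markers was, like Igfbp3, highest in sleep restriction 1 and forced activity 2 and lower in the other 2 libraries. The listed markers did the same one by one except Clec4g and Egfl7. Clec4g measured 11.8 and 18.3 CPM under sleep restriction and 5.09 and 19.1 CPM under forced activity, and Egfl7 measured 10.6 and 10.2 CPM against 6.78 and 5.06 CPM, with no overlap of the groups. The 13 listed markers found in the table summed to 684 and 370 CPM in sleep restriction 1 and 2, and to 274 and 738 CPM in forced activity 1 and 2. Of these, 9 were tested, with a median log2 difference of 1.40 between the deep libraries and of -1.11 between the shallow ones, and no marker was at 0 in all libraries. Kupffer cell markers, 10 tested of 11, summed to 1029 and 694 CPM under sleep restriction and to 655 and 846 CPM under forced activity. The order was thus not particular to endothelial markers. The Kupffer, stellate and red cell sums were also highest in sleep restriction 1 and forced activity 2. Igfbp7, a binding protein of endothelial and stellate cells, measured 149 and 69.2 CPM under sleep restriction and 106 and 102 CPM under forced activity. It did not share this order, since forced activity 1 was slightly above forced activity 2. In bulk liver, fewer cells of a type and less RNA per cell cannot be told apart, and the part of these cells in the values of Igfbp3 was not tested.

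**Figure D2:**
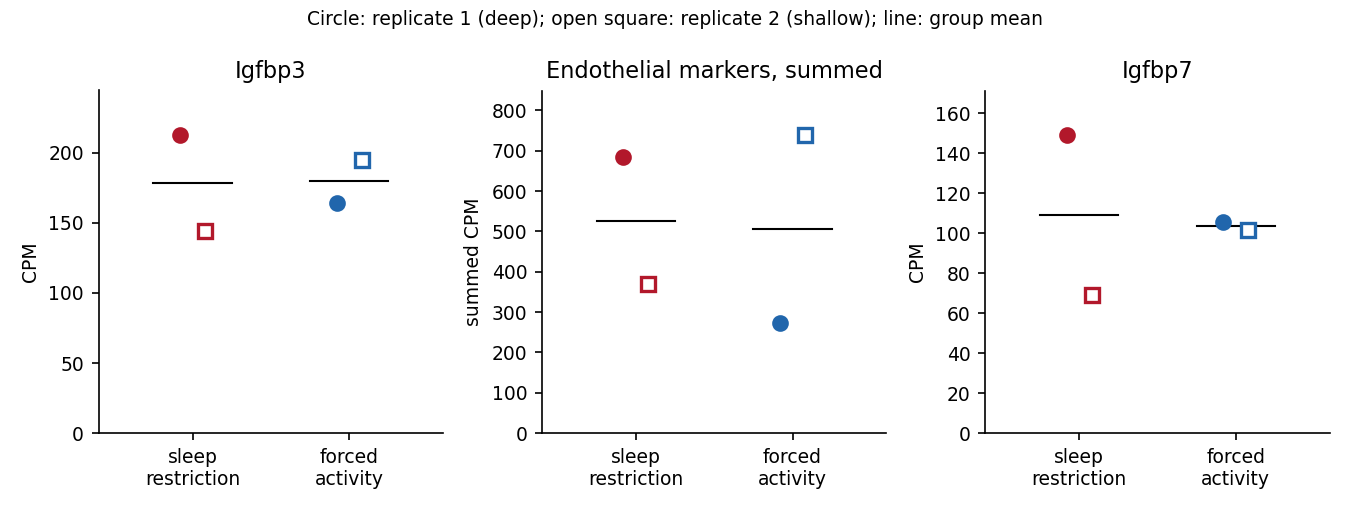
Igfbp3, the sum of 13 endothelial markers and Igfbp7 in CPM (vertical axes from 0) for sleep restriction and forced activity, with circles for replicate 1, open squares for replicate 2 and lines for group means of 2 libraries. Igfbp3 and the endothelial sum are each high in sleep restriction 1 and forced activity 2 and low in the other 2 libraries, and their group means are close. Igfbp7 does not share this order, with forced activity 1 slightly above forced activity 2.

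The contrast between the feedback inhibitors and the rest of the axis can also be written as ratios of counts within each library. Those of Cish and Socs2 reuse the counts given above, so they describe the contrast and add no support for it. Per 100 counts of Igf1 there were 0.448 and 0.383 counts of Cish in sleep restriction 1 and 2, against 9.42 and 4.46 in forced activity 1 and 2. For Socs2 the same ratio was 1.58 and 0.766 under sleep restriction and 5.73 and 4.88 under forced activity. These ratios are taken within a library and do not depend on the scaling between libraries. Relative to the receptor, there were 0.798 and 0.348 counts of Cish per 100 counts of Ghr under sleep restriction, against 16.3 and 7.21 under forced activity. Igfals stood at 41.0 and 31.4 counts per 100 of Igf1 under sleep restriction and at 47.0 and 40.3 under forced activity. Ghr stood at 56.1 and 109.96 counts per 100 of Igf1 under sleep restriction and at 57.9 and 61.9 under forced activity, so sleep restriction 2 was far above the other 3 libraries in this ratio.

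Averaged over genes with more than 3 counts in any library, the log2 CPM of Cish and Socs2 was 3.47 and 2.82 under sleep restriction and 5.91 and 5.12 under forced activity. Ghr and Stat5b averaged 6.60 and 6.70 under sleep restriction and 6.48 and 6.24 under forced activity. Igf1, Igfals and Igfbp3 averaged 8.56 and 7.90 under sleep restriction and 8.49 and 8.36 under forced activity. The median log2 CPM difference between the groups was -2.37 for the feedback inhibitors, 0.29 for Ghr and Stat5b and -0.14 for the IGF1 output, and the median change of all tested genes was 0.00388. No test was made between these sets, since they were formed with the values known.

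**Figure D3:**
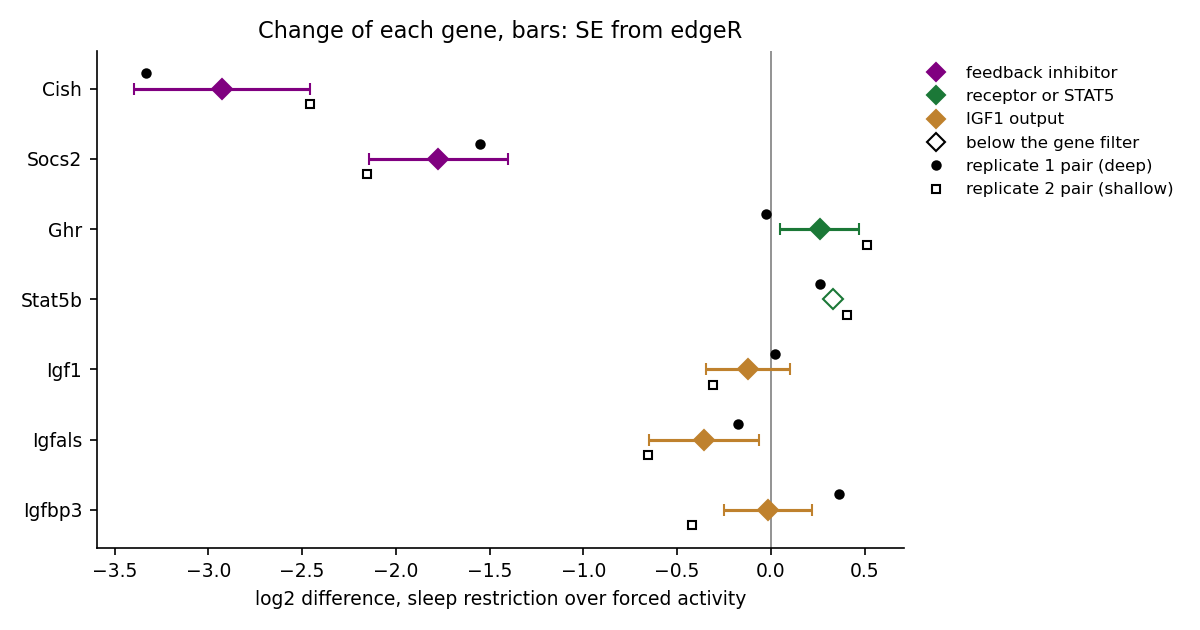
Log2 difference, sleep restriction over forced activity (horizontal axis), for the 7 genes with more than 3 counts in any library, with diamonds for the overall change, bars for its SE from edgeR, circles for the deep pair and open squares for the shallow pair; the open diamond marks Stat5b, below the gene filter. Cish and Socs2 lie below -1.5 in both pairs, while the other 5 genes lie between -0.66 and 0.51 in either pair.

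**Figure D4:**
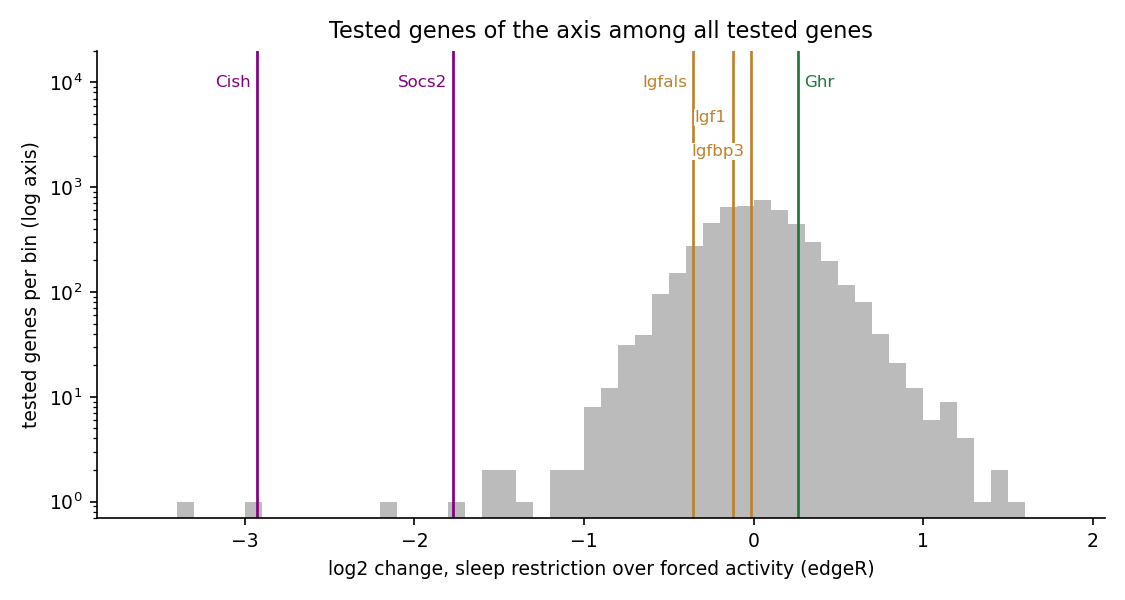
Number of tested genes (vertical log axis) by log2 change, sleep restriction over forced activity (horizontal axis), with lines at the 6 tested genes of the axis. Cish at -2.93 and Socs2 at -1.77 lie far out on the lower side of the 4986 genes, of which 90% lie between -0.46 and 0.53, and Igfals, Igf1, Igfbp3 and Ghr lie within that range.

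The rest of the growth hormone signalling pathway was measured through 19 other genes, all of them in the table, of which 10 rows were tested. None was called in either direction in edgeR, none had an unadjusted p under 0.05, 5 had a positive and 5 a negative log2 change, and their median was -0.02. Jak2, the kinase bound to the receptor, had 16.9 and 30.5 CPM under sleep restriction and 17.8 and 32.5 CPM under forced activity. Its values ran with depth, being higher in both shallow libraries, and its log2 differences were -0.06 and -0.08 in the deep and shallow pairs. Stat3, which the receptor can also activate, had a log2 change of 0.22 (SE 0.22). The adaptor Shc1 had -0.03 (SE 0.22). Irs2, which couples the insulin receptor to its kinases, and the phosphatase Ptpn6, which can dephosphorylate JAK2, had -0.53 (SE 0.58) and -0.32 (SE 0.31), and both were lowest in sleep restriction 2.

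Of 12 other genes of the IGF system, 5 were tested, 0 were called in edgeR and 0 had an unadjusted p under 0.05, with a median log2 change of 0.07. Igfbp4, another IGF carrier, measured 1568 and 1459 CPM under sleep restriction and 1949 and 1559 CPM under forced activity, a log2 change of -0.21 (SE 0.20). Igfbp1, a carrier that insulin represses in liver, measured 104 and 24.4 CPM under sleep restriction and 51.7 and 45.2 CPM under forced activity. Sleep restriction 1 was the highest and sleep restriction 2 the lowest library, and the log2 differences were 0.96 and -0.79 in the deep and shallow pairs. The insulin receptor Insr had a log2 change of 0.16 (SE 0.24). Igf1r, the receptor for IGF1, held at most 1.4 counts in any library, and Igf2 at most 0.5 counts.

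Liver genes that respond to the pattern of growth hormone release, many of them cytochromes P450 that differ between male and female rats, formed a further list. Of 18 symbols 15 were found, and 12 rows were tested. None was called in edgeR. At an unadjusted p under 0.05, 4 were higher and 0 lower, and the groups did not overlap with sleep restriction higher for 6 of the 12, against 2.91% and 17.2% of all tested genes. The list was drawn up with some of its values known, Cyp4a2 among them, so these counts are not independent evidence. Its median log2 change was 0.41, at 0.07 for the deep libraries and at 0.74 for the shallow ones, so most of it lay in the shallow libraries. Of the 12 rows, 11 had a positive log2 change and 1, Srd5a1, a negative one (-0.58, SE 0.29). Among the 4986 tested genes 2605 were positive. The rows include both entries of Cyp4a2 and related P450 genes, so they are not separate observations. The list mixes genes that the hormone affects in different ways, so its median has no single expected sign.

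Bcl6, a repressor that competes with STAT5 for its sites and is repressed by growth hormone in mouse liver, measured 38.7 and 69.2 CPM under sleep restriction and 26.9 and 17.3 CPM under forced activity. Both sleep restriction libraries were above both controls. Its log2 change was 1.13 (SE 0.33, adjusted p = 0.978 in edgeR), at 0.46 for the deep libraries and 1.78 for the shallow ones. The fatty acid hydroxylase Cyp4a2 has 2 entries, with log2 changes of 1.19 (SE 0.28, adjusted p = 0.713 in edgeR) and 0.49. Its log2 differences in the deep and shallow pairs were 1.46 and 1.02 for the former entry and 0.71 and 0.14 for the latter. The close copies of Cyp4a2 make the division of reads uncertain. The steroid hydroxylases Cyp3a2 and Cyp3a18, which too have close relatives, had log2 changes of 0.69 (SE 0.27) and 0.69 (SE 0.26). The adjusted p was 0.978 in edgeR for both. In the deep and shallow pairs Cyp3a2 had 0.61 and 0.80, and Cyp3a18 had 0.53 and 0.80. Cyp2c11, the male-predominant P450 of rat liver, measured 4052 and 4664 CPM under sleep restriction and 4029 and 3094 CPM under forced activity, a log2 change of 0.29 (SE 0.21) with nearly equal values in the deep pair. Car3 had 0.20 (SE 0.27) and Serpina1 0.05 (SE 0.19).

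Because Socs3 answers mainly to interleukin-6 signalling through STAT3, that branch was listed as well. Of 19 genes 13 were tested, 0 were called in edgeR and 1 had an unadjusted p under 0.05, in the higher direction, against 2.91% of all tested genes. The median log2 change was -0.000476. The 1 gene was Il6st, the shared signalling receptor gp130, which measured 202 and 140 CPM under sleep restriction and 127 and 58.8 CPM under forced activity. Its lowest sleep restriction library was above its highest control, as for 17.2% of all tested genes, and its log2 change was 0.86 (SE 0.33, adjusted p = 0.978 in edgeR). Among the acute phase products of the branch, haptoglobin Hp had a log2 change of -0.01 (SE 0.19) and the fibrinogen chain Fgb of 0.00256 (SE 0.20). Their direction turned between the deep and shallow pairs, at -0.15 and 0.14 for Hp and at -0.25 and 0.23 for Fgb. Crp had a log2 change of 0.23 (SE 0.31) and Cebpb, a transcription factor of the acute phase, of -0.31 (SE 0.59).

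**Figure D5:**
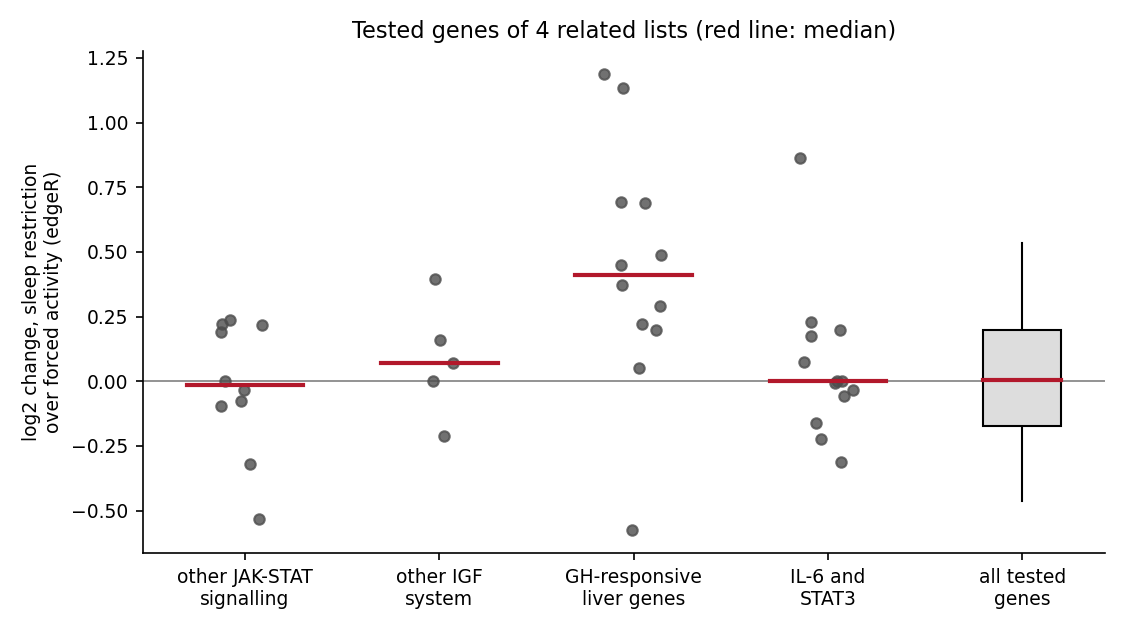
Log2 change, sleep restriction over forced activity, of each tested gene in 4 related lists (points) with the list median (red line), beside all tested genes (box from the 25th to the 75th and whiskers from the 5th to the 95th percentile). The growth hormone responsive liver genes have a median of 0.41, with Bcl6 and the higher entry of Cyp4a2 above 1.1. The other entry of Cyp4a2 is at 0.49, and the medians of the other 3 lists lie between -0.02 and 0.07.

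The tested genes whose pattern over the 4 libraries was most like that of Cish, by the root mean square difference of centred log2 CPM, were RT1-A2 (0.24), Hhex (0.44) and Socs2 (0.64). RT1-A2, a class I gene of the major histocompatibility complex, measured 28.1 and 20.3 CPM under sleep restriction and 380 and 203 CPM under forced activity, and it was the 1 gene called. Hhex, a homeobox transcription factor, measured 44.4 and 36.6 CPM under sleep restriction and 281 and 109 CPM under forced activity. Most like Socs2 were Rgs3 (0.18), a regulator of G-protein signalling, Jun (0.31), an immediate early transcription factor, and Dusp6 (0.32), a phosphatase of MAP kinases. Jun measured 28.1 and 12.2 CPM under sleep restriction and 59.5 and 42.1 CPM under forced activity. With 4 libraries such likeness rests on few points and carries no test.

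Immunoglobulin transcripts were low in the same libraries as Cish and Socs2. In the lymphoid list of 6 genes, the sums were 305 and 374 CPM under sleep restriction and 482 and 444 CPM under forced activity. The largest part was Cd74, whose groups overlapped, at 214 and 256 CPM under sleep restriction and 265 and 218 CPM under forced activity. Ighm measured 35.0 and 52.9 CPM under sleep restriction and 94.5 and 108 CPM under forced activity, with Igkc at 35.8 and 36.6 CPM under sleep restriction and at 107 and 96.2 CPM under forced activity. The T cell marker Cd3e and the B cell marker Cd79b were at or below 0.6 counts in every library, and Ptprc, carried by all white cells, measured 19.3 and 28.5 CPM under sleep restriction and 14.8 and 22.4 CPM under forced activity. The neutrophil list summed to at most 3.18 CPM in any library, with Mpo and Elane at 0 throughout. Summed markers of stellate cells were 923 and 733 CPM under sleep restriction and 800.4 and 818 CPM under forced activity, and those of red cells 576 and 354 CPM against 424 and 913 CPM. Cholangiocyte markers summed to 28.3 and 24.4 CPM under sleep restriction and to 37.3 and 30.2 CPM under forced activity. The 6 hepatocyte markers summed to 183291 and 188796 CPM under sleep restriction and to 177102 and 179944 CPM under forced activity, most of it Alb. Among them Apoa1, an apolipoprotein of high density lipoprotein, measured 1515 and 1215 CPM under sleep restriction and 1864 and 2170 CPM under forced activity, a log2 change of -0.56 (SE 0.20, adjusted p = 0.978 in edgeR). The groups did not overlap for Apoa1, nor for Ttr, which had 8273 and 7256 CPM under sleep restriction and 10118 and 8686 CPM under forced activity. Cps1 and Ass1 did not overlap in the other direction, with Ass1 at 2841 and 2126 CPM under sleep restriction and 2011 and 1946 CPM under forced activity. Of all tested genes, 15.3% were lower without overlap under sleep restriction and 17.2% were higher. The part of other cells in the values of Cish and Socs2 was not tested.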

How the data were processed

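Estimated counts for each Ensembl gene stood in 1 table deposited by the authors, beside symbols and intervals. The submitters' processing notes name CASAVA, STAR 2.4.1d and rn6 without a role, and for the step of counting reads no program is given in the sources. The deposited values are multiples of 0.1, and 1 column holds whole numbers at 32544 of 32545 rows, as means over 10 draws of deeper libraries down to the shallowest would. That is inferred from the values and from the table's name, which also marks them as sense strand.

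Counts were rounded and tested with edgeR 4.0.16 (R 4.3.3): TMM factors, filterByExpr with a minimum count of 10, robust quasi-likelihood, Benjamini-Hochberg adjustment over all genes kept, called under 0.05. Log2 changes are shrunken by a prior count of 2, and SEs were obtained by dividing each absolute change by the root of the F statistic. CPM and within-pair differences use the values as deposited, and ratios of summed counts use rounded values. The test was tried on simulated counts. Alternatives covered scaling, filters, DESeq2 1.42.0, limma-voom 3.58.1, rounding, effective counts, prior count, replicate number and leaving out each library. Effective counts multiply each library by the factor that gives its averaged values the counting noise of plain counts. That factor was taken at the upper limit of the drawn fraction and not at its estimate.

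The genes and lists were chosen with earlier results of these data known. Named from each of the 4 related lists were tested genes with an unadjusted p under 0.05, the 3 highest by CPM and the 3 with the largest changes. Genes of the cell marker lists were named without this rule. Other SOCS genes, Stat5a, Jak2, Igf1r, Igf2 and Srd5a1 were named outside this rule after their values were seen. One gene that the rule names is not reported here.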

Additional observations from a re-analysis of the deposited data

How the results depend on the processing

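The number of genes called was 1 in the main test and in 7 alternatives. DESeq2 and effective counts each called 2, whereas 0 were called without a gene filter, by limma-voom and when robust estimation was off, and leaving out single libraries gave 0 to 0, in fits with 1 residual degree of freedom that could hardly call a gene. Nothing in the labels ties equal replicate numbers to a shared animal or batch, so no pairing was assumed. Over all tested genes, the deviations of sleep restriction 1 and forced activity 1 from their group means correlated at 0.206. Depth goes with replicate number, so this value cannot decide whether the libraries were paired. With a replicate block 11 genes passed, 9 of them lower, and the block called 2 genes of the axis, Cish (adjusted p 0.000176) and Socs2 (0.0276), against 0 in the main test, 1 (Cish) with effective counts and 0 to 0 with each library left out. Cish and Socs2 had negative changes in all 17 alternatives, from -4.06 to -2.23 and from -2.36 to -1.36, and Ghr a positive one in all 17, from 0.025 to 0.45. The IGF1 output changed sign in a few: with each library left out Igf1 ran from -0.43 to 0.11, Igfals from -0.89 to 0.022 and Igfbp3 from -0.32 to 0.22, each positive without sleep restriction 2, and Igfbp3 was also positive without forced activity 2 (0.10) and with effective counts (0.031). The median difference of the feedback inhibitors was -2.92 with effective counts and -2.95 with a prior count of 0.5, and it ran from -2.77 to -1.99 with each library left out. That of Ghr and Stat5b ran from 0.16 to 0.41 and that of the IGF1 output from -0.42 to 0.12. These medians do not use the gene filter or the test and were not recomputed under those settings or with rounded values. The cause of these shifts was not tested. One of the alternatives, the older quasi-likelihood, was chosen after seeing the data. Depth limits Cish, Socs2, Socs3, Prlr and Stat5b, which have few counts.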
